A study of Mus musculus with 114 samples.

Results

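Gpnmb, Trem2, Spp1, Cd9, Cd63 and Lgals3 are 6 genes used as markers of lipid-associated macrophages, the macrophages that gather around dying adipocytes in obese fat. They were taken by symbol from a table of 29132 genes, and each symbol matched 1 row. The table gives expression in the adipocyte fraction of perigonadal white adipose tissue (PGWAT), the fat cells that float after collagenase digestion, from male C57BL/6J mice. Feeding began when the mice were 6 weeks old, on control chow (CD) or on a high fat diet (HFD), and lasted 8, 20 or 34 weeks, so that mice with more time on a diet were also older. There were 6 CD and 6 HFD mice at 8 weeks, 6 and 6 at 20 weeks, and 8 and 6 at 34 weeks, which makes 38 mice. The methods name no transgene or engineered deletion. They give the chow as either of a pair of control formulas, without saying which mice had which. The comparisons ask how the markers differed between diets at each time, how they changed with time on each diet, and whether the difference between diets changed with time.

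As background, TREM2 is a lipid-sensing receptor of the macrophage surface that signals through the adaptor TYROBP and the kinase SYK. GPNMB is a glycoprotein of lysosomes and the cell surface that accumulates in lipid-laden macrophages. SPP1, or osteopontin, is a secreted ligand of integrins and CD44, and LGALS3, or galectin-3, is a secreted and intracellular lectin that binds galactosides. CD9 and CD63 are tetraspanins, membrane proteins of the cell surface and of late endosomes and exosomes respectively. Cd63 is expressed by most cell types, while Trem2 is largely restricted to myeloid cells. In obese fat, macrophages that surround dead adipocytes take up their lipid and are known to express these genes together.

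Between 9275711 and 15480388 reads per mouse fell on the listed genes (median 12522298), and 1 read was worth 0.0646 to 0.108 CPM (reads scaled to a sum of 1000000 per mouse). At 8 weeks the HFD libraries were all deeper (13201234 to 15480388 reads) than the CD libraries (10562845 to 12611013). The CD libraries at 20 weeks (13091365 to 14292115) were all deeper than those at 8 weeks and at 34 weeks (9275711 to 12433584). The HFD libraries at 20 weeks (13159018 to 14961360) were all deeper than those at 34 weeks (10714545 to 12271651). The part of depth in the results was not tested. The adipocyte genes that define the labelled fraction (11 genes, among them Adipoq and Plin1) summed to 9883 to 54378 CPM in every mouse. Markers of macrophages were present as well. The 17 core macrophage genes found in the table, among them Csf1r, C1qa and Lyz2, had a median sum of 664 CPM in CD and 2079 CPM in HFD mice at 8 weeks, 1509 and 8244 CPM at 20 weeks, and 4137 and 12800 CPM at 34 weeks. T cell markers (7 genes) summed to at most 4.53 CPM, B cell markers (5 genes) to at most 5.90 CPM and genes of the epididymal epithelium (5 genes) to at most 8.27 CPM in any mouse. CD mouse 1 at 20 weeks stood apart from its group, with the highest value of all 6 markers and 3571 CPM of core macrophage genes against 968 to 1626 CPM in the other 5 mice, and values without it are given beside the members' results and together for the gene lists.

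In RefSeq on GRCm38.p6, Trem2 (Entrez 83433) lies at chr17:48346401-48352276, Gpnmb (93695) at chr6:49036518-49058182 and Spp1 (20750) at chr5:104435111-104441053. Cd9 (12527) lies at chr6:125460266-125494760 on the minus strand, Cd63 (12512) at chr10:128896231-128912822 and Lgals3 (16854) at chr14:47373860-47386167, and the others are on the plus strand. The members thus lie on 5 chromosomes, and Gpnmb and Cd9 share chromosome 6. In GENCODE vM21 the predicted gene Gm42793 overlaps Spp1 on the same strand, and Gm28809 and Gm26728 overlap Cd9 on the opposite strand. The strand setting of the counting was not given in the sources used here, so reads of overlapping genes may not have been separated.

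The members rose together with time on HFD, so the 250 bases upstream of their RefSeq start sites (GRCm38.p6) were searched on both strands for motifs of factors active in myeloid cells and lysosomes and of core promoters. The letters searched were TGANTCA for AP-1 and GAGGAAG for PU.1, a factor that directs macrophage genes. For the E-box they were CACGTG, and for the M-box of MITF they were CATGTG. For core promoters the letters GGGCGG of the GC box and the letters TATAAA of the TATA box were added, and no match overlapped another in these windows. GAGGAAG was found upstream of Trem2, Spp1 (at the more upstream of its listed starts) and Cd63, and in 10.6% of the 32851 upstream windows of the genome. TGANTCA was found upstream of Trem2 alone among the 6 and in 6.75% of all windows. The window of Gpnmb, the member with the largest difference between diets at 8 and 20 weeks, held none of the 6 motifs. Windows holding CACGTG made up 6.02% of all and included none of a member. CATGTG (12.3% of all windows) was found upstream of Cd9, GGGCGG (32.7%) upstream of Cd9 and Lgals3, and TATAAA (12.4%) upstream of Spp1. That TATAAA lay 211 to 206 bases before the start, and its use as a TATA box was not tested. A match describes letters and not a bound site. The 3 windows with GAGGAAG and that of Gpnmb are shown 5′ to 3′ in the sense of the gene, ending at the base before the start, with matches in capitals (a GAGGAAG on the other strand reads CTTCCTC). They cover chr17:48346151-48346400 (Trem2), chr5:104434861-104435110 (Spp1), chr10:128909095-128909344 (Cd63) and chr6:49036268-49036517 (Gpnmb), all on the plus strand, and that of Cd63 lies inside the listed span of the gene.
Trem2: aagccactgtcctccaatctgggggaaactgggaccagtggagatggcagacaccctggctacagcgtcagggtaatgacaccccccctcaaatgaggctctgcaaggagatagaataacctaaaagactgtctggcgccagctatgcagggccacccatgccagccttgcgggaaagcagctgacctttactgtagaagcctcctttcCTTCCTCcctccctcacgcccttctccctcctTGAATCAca
Spp1: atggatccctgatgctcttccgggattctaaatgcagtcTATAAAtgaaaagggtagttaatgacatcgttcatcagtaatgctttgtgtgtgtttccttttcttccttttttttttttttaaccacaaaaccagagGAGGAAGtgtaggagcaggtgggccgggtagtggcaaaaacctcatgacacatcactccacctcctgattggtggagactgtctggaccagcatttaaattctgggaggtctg
Cd63: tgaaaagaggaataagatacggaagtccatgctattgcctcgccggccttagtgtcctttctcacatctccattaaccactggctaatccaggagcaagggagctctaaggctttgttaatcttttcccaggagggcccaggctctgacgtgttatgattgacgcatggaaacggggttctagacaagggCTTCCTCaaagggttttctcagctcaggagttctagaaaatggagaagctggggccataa
Gpnmb: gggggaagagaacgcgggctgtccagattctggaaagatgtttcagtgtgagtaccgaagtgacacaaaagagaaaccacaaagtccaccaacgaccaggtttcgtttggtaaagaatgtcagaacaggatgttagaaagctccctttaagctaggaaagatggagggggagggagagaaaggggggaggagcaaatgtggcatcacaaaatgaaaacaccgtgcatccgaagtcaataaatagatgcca

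All 6 markers were higher in HFD than in CD mice at 20 weeks, and 5 of 6 at 8 weeks and at 34 weeks, by limma on log2(CPM + 1) with adjusted p under 0.05 over the 10343 genes tested. Across those genes 44.9%, 57.0% and 43.2% were called in either direction at 8, 20 and 34 weeks. The exceptions were Cd63 at 8 weeks and Spp1 at 34 weeks. The median log2 fold change of the 6 was 2.32, 4.64 and 1.95 at the 3 times, against 0.11, 0.14 and 0.07 over all genes tested. The lowest HFD mouse exceeded the highest CD mouse for 3 of the 6 markers at 8 weeks (15.7% of genes tested), for 6 of 6 at 20 weeks (26.1%) and for none at 34 weeks (1.47%). The 20 week log2 fold changes without CD mouse 1 were 7.48 for Gpnmb, 5.76 for Spp1, 5.64 for Trem2, 4.84 for Cd9, 3.28 for Lgals3 and 0.61 for Cd63, and all 6 were still called. With edgeR and DESeq2, which model counts and do not average logs, Gpnmb had 4.82 and 4.87, Trem2 4.22 and 4.28, and Spp1 3.25 and 3.31 at 20 weeks, and these were called. The groups are bulk samples, in which more cells of a type and more RNA per cell cannot be told apart.

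**Figure D1:**
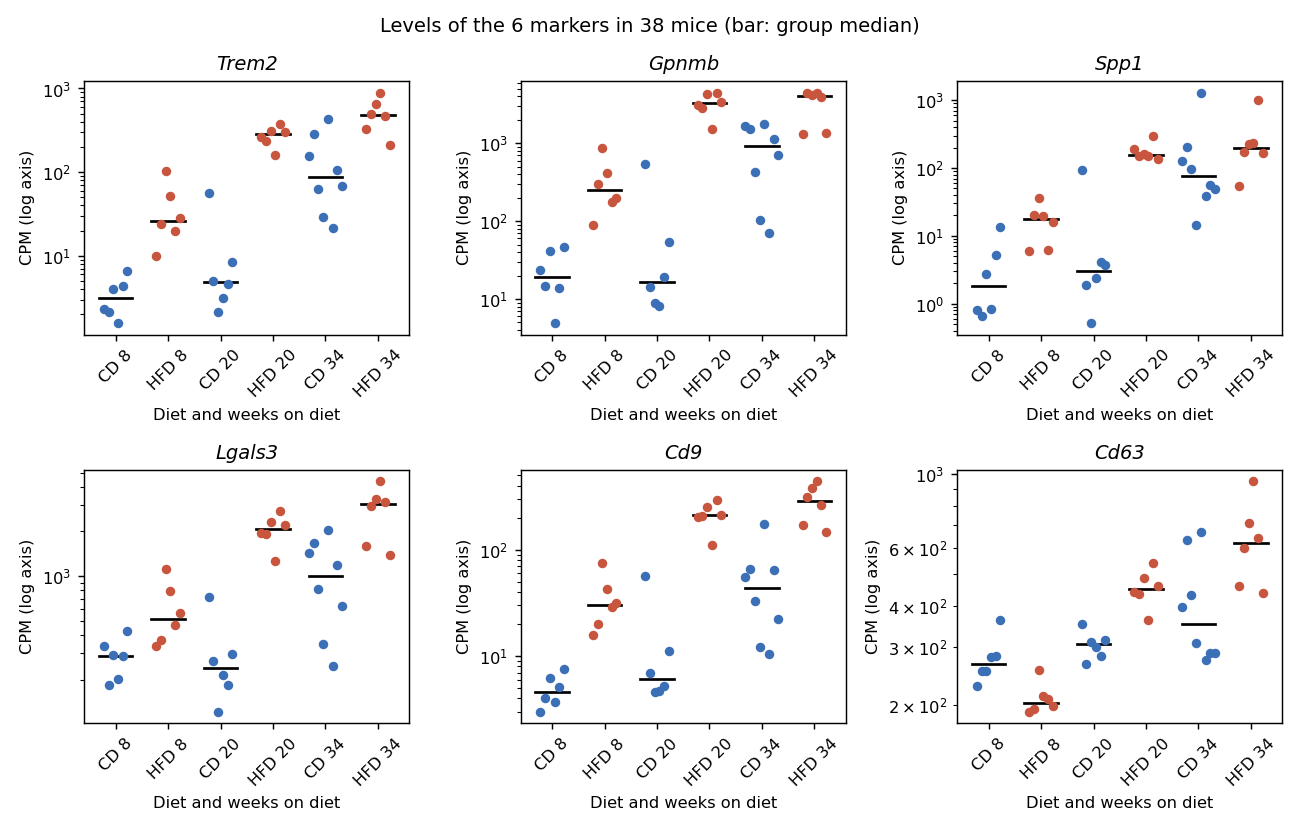
CPM (log axis) of each marker in each of 38 mice, by diet (CD blue, HFD red) and weeks on diet, with a bar at the group median. At 20 weeks each HFD mouse lies above each CD mouse for all 6 markers, CD mouse 1 at 20 weeks stands above its group, and the CD mice at 34 weeks spread widely (Trem2 from 21.5 to 433 CPM).

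Trem2, the receptor of the set, was low in young chow-fed mice. At 8 weeks it ranged from 1.57 to 6.58 CPM in CD mice (17 to 83 reads, median 3.13 CPM) and from 10.1 to 102 CPM in HFD mice (median 26.3 CPM). At 20 weeks it ranged from 2.13 to 56.7 CPM in CD (median 4.87) and from 158 to 376 CPM in HFD mice (median 283). The diets did not overlap at either time, even with CD mouse 1 at 20 weeks, which gave the 56.7 CPM. At 34 weeks CD mice ranged from 21.5 to 433 CPM (median 87.6) and HFD mice from 212 to 893 CPM (median 483), so that the 2 highest CD mice lay within the HFD range. The log2 fold change was 2.90 ± 0.61 (SE, adjusted p = 0.000331) at 8 weeks, 5.07 ± 0.61 (adjusted p = 7.51e-08) at 20 weeks and 2.28 ± 0.57 (adjusted p = 0.0019) at 34 weeks.

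Gpnmb, the glycoprotein of lipid-laden macrophages, reached the highest CPM of the 6. At 8 weeks it ran from 4.91 to 46.5 CPM in CD (median 19.3) and from 90.5 to 882 CPM in HFD mice (median 251). At 20 weeks it ran from 8.17 to 540 CPM in CD (median 16.7) and from 1550 to 4467 CPM in HFD mice (median 3247). CD mouse 1 gave the 540 CPM and the other 5 CD mice lay at or below 54.7 CPM, while the HFD mice were all far above both. At 34 weeks CD mice spread from 71.1 to 1784 CPM (median 933) and HFD mice from 1305 to 4487 CPM (median 4038), with overlap of the groups. The log2 fold change was 3.71 ± 0.80 (adjusted p = 0.000445), 6.66 ± 0.80 (adjusted p = 7.51e-08) and 2.32 ± 0.74 (adjusted p = 0.0122) at 8, 20 and 34 weeks. At 20 weeks this was the largest log2 fold change of the 10343 genes tested.

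Spp1, the secreted integrin ligand, had the highest ratio of highest to lowest mouse of the 6 markers in CD mice at each time and in HFD mice at 34 weeks, and not in HFD mice at 8 and 20 weeks. At 8 weeks it ranged from 0.652 to 13.4 CPM in CD (8 to 169 reads, median 1.79 CPM) and from 5.95 to 36.0 CPM in HFD mice (median 17.7), and the highest CD mouse lay within the HFD range. At 20 weeks the ranges were 0.515 to 93.3 CPM (median 3.05) and 137 to 301 CPM (median 155), which did not overlap. At 34 weeks they were 14.6 to 1298 CPM in CD (median 76.3) and 53.8 to 1025 CPM in HFD mice (median 197). The highest mouse of each diet, mouse 5 in both groups, stood far above the rest, and the next highest was at 208 CPM in CD and 232 CPM in HFD mice. The log2 fold change was 2.14 ± 0.82 (adjusted p = 0.0319) at 8 weeks, 4.95 ± 0.82 (adjusted p = 6.06e-06) at 20 weeks and 1.16 ± 0.76 (adjusted p = 0.218) at 34 weeks. The 8 week call was lost with edgeR (adjusted p = 0.111) and DESeq2 (adjusted p = 0.0612), and without any of 7 mice (CD mouse 1, 2 or 4, or HFD mouse 2, 3, 4 or 6), and at 34 weeks the value was 1.70 (adjusted p = 0.0417) without CD mouse 5, 0.70 (adjusted p = 0.487) without HFD mouse 5, 0.40 with edgeR (adjusted p = 0.721) and 0.39 with DESeq2 (adjusted p = 0.733). With array weights it was 2.18 (adjusted p = 0.0147).

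Lgals3, the lectin, was already abundant in young chow-fed mice. At 8 weeks it ran from 183 to 427 CPM in CD (median 290) and from 337 to 1118 CPM in HFD mice (median 517), with overlap. At 20 weeks the ranges were 121 to 727 CPM (median 241) and 1255 to 2761 CPM (median 2087), with no overlap. At 34 weeks they were 247 to 2036 CPM (median 1001) and 1396 to 4364 CPM (median 3069), and the 3 highest CD mice lay within the HFD range. The log2 fold change was 1.00 ± 0.42 (adjusted p = 0.0495), 2.98 ± 0.42 (adjusted p = 6.62e-07) and 1.62 ± 0.39 (adjusted p = 0.00151) at 8, 20 and 34 weeks. The 8 week value was at the edge of the threshold, since it was lost in 24 of the 38 fits that left out a mouse, among them 9 that left out a mouse of the 8 week groups (CD 1 to 5 and HFD 3 to 6) and with TMM scaling (adjusted p = 0.0656).

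Cd9, a tetraspanin of the cell surface, was also low in young chow-fed mice. At 8 weeks it ranged from 3.00 to 7.61 CPM in CD (median 4.58) and from 15.8 to 75.8 CPM in HFD mice (median 30.1). At 20 weeks it ranged from 4.64 to 56.7 CPM (median 6.07) and from 112 to 291 CPM (median 210). The diets were fully apart at both times. At 34 weeks CD mice ranged from 10.4 to 175 CPM (median 44.0) and HFD mice from 147 to 440 CPM (median 290), and only the highest CD mouse reached the HFD range. The log2 fold change was 2.49 ± 0.52 (adjusted p = 0.000311), 4.34 ± 0.52 (adjusted p = 7.51e-08) and 2.79 ± 0.48 (adjusted p = 7.14e-05).

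Cd63, the tetraspanin of late endosomes, differed from the rest in level and in size of change. It ran from 229 to 363 CPM in CD (median 267) and from 191 to 257 CPM in HFD mice (median 204) at 8 weeks, where all HFD mice but mouse 3 lay below the CD range. At 20 weeks the ranges were 267 to 353 CPM (median 306) and 362 to 540 CPM (median 450), with no overlap. At 34 weeks they were 275 to 670 CPM (median 353) and 436 to 951 CPM (median 620), with the 2 highest CD mice inside the HFD range. The log2 fold change was -0.39 ± 0.18 (adjusted p = 0.0835), 0.57 ± 0.18 (adjusted p = 0.00858) and 0.66 ± 0.17 (adjusted p = 0.00289) at 8, 20 and 34 weeks. These small values moved with the processing. At 8 weeks Cd63 was called lower in HFD mice with TMM (-0.50, adjusted p = 0.0217), median-of-ratios scaling (-0.49, adjusted p = 0.0281), edgeR (-0.51, adjusted p = 0.0225) and DESeq2 (-0.50, adjusted p = 0.0203). It was also called lower with array weights (-0.35, adjusted p = 0.00675) and with the 8 week groups alone (-0.39, adjusted p = 0.00899). At 20 weeks it was not called with TMM (0.37, adjusted p = 0.0674) or edgeR (0.38, adjusted p = 0.0702). TMM moved the median of all genes from 0.11 to 0.00 at 8 weeks, from 0.14 to -0.05 at 20 weeks and from 0.07 to -0.01 at 34 weeks, and the share of called genes that were higher in HFD mice from 66.3%, 67.1% and 63.6% to 49.9%, 46.4% and 50.4%. Fitted with the 34 week groups alone, the Cd63 value at 34 weeks had an adjusted p of 0.061.

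Per kilobase of exon (GENCODE vM21 exon union), the order of the members differed between groups. In CD mice at 8 weeks the median levels were 156 CPM per kb for Lgals3 and 72.6 for Cd63, against 2.96 for Gpnmb, 2.24 for Cd9, 1.09 for Spp1 and 0.634 for Trem2. In HFD mice at 20 weeks they were 1123 for Lgals3, 499 for Gpnmb, 122 for Cd63, 103 for Cd9, 94.2 for Spp1 and 57.1 for Trem2. Diet and time both differ between these groups. Gpnmb was below Cd63 in HFD mice at 8 weeks (38.5 and 55.4) and above it in CD mice at 34 weeks (143 and 95.8). In CD mice at 20 weeks the medians were 130 for Lgals3, 83.0 for Cd63 and 2.57 for Gpnmb, and 115, 81.7 and 2.18 without mouse 1. On this scale Lgals3 was highest and Trem2 lowest in all 6 groups. That order depends on the exon unions used, which were 4946 bases for Trem2 and 1648 for Spp1. By median CPM Trem2 lay above Spp1 in each group (283 against 155 CPM in HFD mice at 20 weeks). The reads had been counted on GENCODE vM2, whose lengths were not used here.

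With time on chow no marker passed the test between 8 and 20 weeks, and 5 rose from 20 to 34 weeks. At 20 against 8 weeks 0 of the 6 were called by limma, edgeR or DESeq2 (3.58% of genes tested were called by limma), and 0 had an unadjusted p under 0.05. At 34 against 20 weeks 5 of 6 were higher (62.5% of genes called), with log2 fold changes of 4.23 ± 0.74 for Gpnmb (adjusted p = 1.28e-05), 4.04 ± 0.76 for Spp1 (adjusted p = 3.37e-05) and 3.58 ± 0.57 for Trem2 (adjusted p = 2.66e-06). Gpnmb and Spp1 had the largest log2 fold changes of all genes tested in that comparison. Cd9 followed with 1.93 ± 0.48 (adjusted p = 0.000902) and Lgals3 with 1.72 ± 0.39 (adjusted p = 0.000334), while the value of Cd63 was 0.35 ± 0.17 (adjusted p = 0.0719), and it was called without CD mouse 4, 6, 7 or 8 at 34 weeks (0.40 to 0.42). Without CD mouse 1 at 20 weeks the values of Gpnmb, Spp1 and Trem2 were 5.06, 4.86 and 4.16, and those of Cd9, Lgals3 and Cd63 were 2.43, 2.02 and 0.40 (adjusted p = 0.0572 for Cd63). At 34 against 8 weeks all 6 were higher (64.7% of genes called), from 0.50 ± 0.17 for Cd63 (adjusted p = 0.012) to 4.83 ± 0.74 for Gpnmb (adjusted p = 1.86e-06). Among CD mice at 34 weeks mouse 5 had the highest value of all 6 markers and mouse 6 the lowest of 5.

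On HFD the calls fell in the earlier interval. The changes of the 2 diets from 8 to 20 weeks were compared directly only by the interaction term below, which called 2 of 6 markers. All 6 markers were higher at 20 than at 8 weeks of HFD (36.5% of genes called), with log2 fold changes of 3.54 ± 0.80 for Gpnmb (adjusted p = 0.00108), 3.51 ± 0.82 for Spp1 (adjusted p = 0.00145), 3.08 ± 0.61 for Trem2 (adjusted p = 0.000345), 2.67 ± 0.52 for Cd9 (adjusted p = 0.000302), 1.86 ± 0.42 for Lgals3 (adjusted p = 0.0011) and 1.10 ± 0.18 for Cd63 (adjusted p = 6.65e-05). Of the 6, Cd63 had the smallest change and the lowest adjusted p. At 34 against 20 weeks of HFD 0 were called by limma, edgeR or DESeq2 (30.2% of genes called by limma), and 1, Cd63, had an unadjusted p under 0.05 (0.44 ± 0.18, adjusted p = 0.0664). It was called in 4 fits that left out a mouse, among them those without HFD mouse 1 or 6 at 34 weeks. The other values ran from -0.10 ± 0.80 for Gpnmb to 0.79 ± 0.61 for Trem2 (95% interval -0.44 to 2.02).

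**Figure D2:**
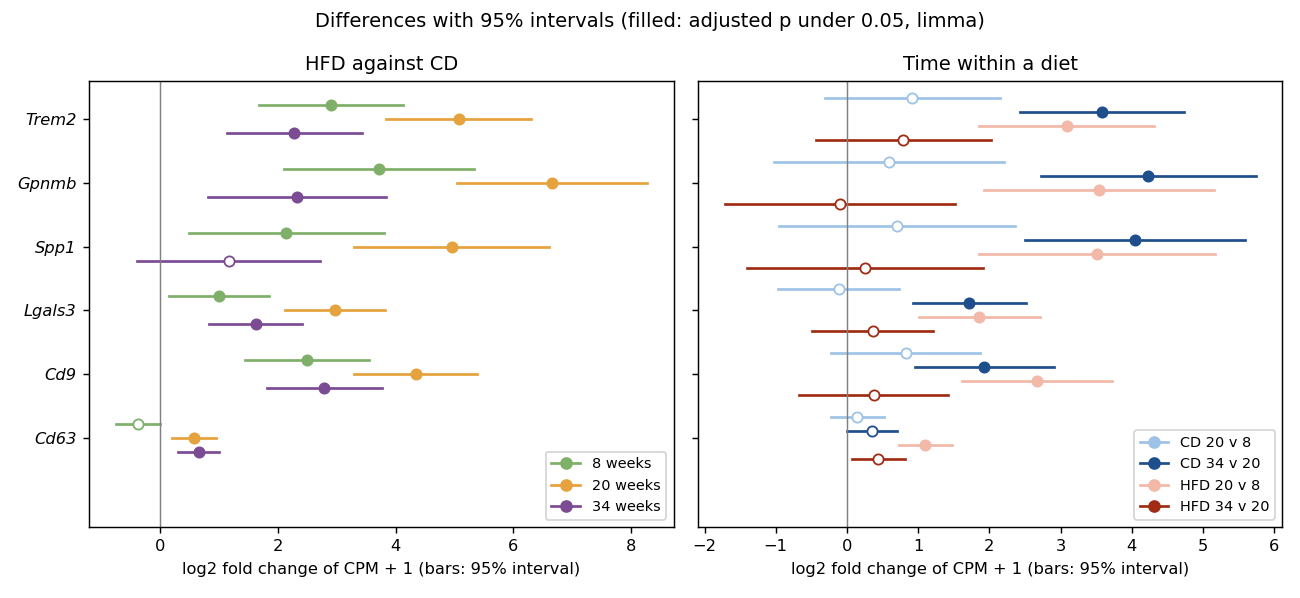
Log2 fold changes with 95% intervals for HFD against CD at each time (left) and for time within each diet (right), filled where the adjusted p of limma was under 0.05. The 20 week values of Trem2, Gpnmb, Spp1, Lgals3 and Cd9 (2.98 to 6.66) lie above their values at 8 and 34 weeks. Values for HFD at 34 against 20 weeks (-0.10 to 0.79) were not called, though the interval of Cd63 (0.07 to 0.81) excludes 0.

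The difference between diets was itself compared between times by an interaction term, and these comparisons share the 20 week mice. From 8 to 20 weeks it moved up for 2 of 6 markers (4.49% of genes called), Lgals3 by 1.97 ± 0.59 (adjusted p = 0.0481) and Cd63 by 0.96 ± 0.26 (adjusted p = 0.0325), whose value went from -0.39 to 0.57. Gpnmb (2.94 ± 1.12), Spp1 (2.81 ± 1.15), Trem2 (2.17 ± 0.86) and Cd9 (1.85 ± 0.73) had larger or similar values with adjusted p between 0.0979 and 0.12. Without CD mouse 1 at 20 weeks all 6 were called, as were 12.7% of all genes, with Gpnmb at 3.77 (adjusted p = 0.0137) and Trem2 at 2.74 (adjusted p = 0.0213). The Cd63 call was lost without any of 8 mice (CD mouse 6 and HFD mouse 1 or 6 at 8 weeks, CD mouse 2, 3 or 5 and HFD mouse 3 or 5 at 20 weeks, adjusted p 0.0502 to 0.0615), and the Lgals3 call without any of 22, of which 19 were in these groups (adjusted p 0.0511 to 0.0993). From 20 to 34 weeks the difference shrank for 3 of 6 (10.5% of genes called), Gpnmb by -4.33 ± 1.09 (adjusted p = 0.0103), Spp1 by -3.79 ± 1.12 (adjusted p = 0.0262) and Trem2 by -2.79 ± 0.83 (adjusted p = 0.0271). Gpnmb had the lowest interaction value of all 10343 genes. Without CD mouse 1 at 20 weeks all but Cd63 were called, as were 15.2% of all genes, with Gpnmb at -5.16 (adjusted p = 0.000679), without CD mouse 6 at 34 weeks Lgals3 was called as well, and without CD mouse 3 or 4 at 20 weeks Gpnmb alone was called. With edgeR the lowest adjusted p of the 6 was 0.0592, for Gpnmb, and with DESeq2 2 were called.

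Since core macrophage genes rose as well, each marker was set against their summed CPM in the same mouse, as a description with no test. The genes of the sum did not all differ alike at 20 weeks. Lyz2 had medians of 328 CPM in CD and 2663 CPM in HFD mice. Cd14 had 403 and 539 CPM and was not called (log2 fold change 0.36, adjusted p = 0.537 by limma). Trem2 was 0.451% of that sum in CD and 1.45% in HFD mice at 8 weeks (medians), 0.382% and 3.40% at 20 weeks, and 2.52% and 3.75% at 34 weeks. Its HFD mice lay above its CD mice at each of the 3 times, at 34 weeks with 1.40% to 3.08% in CD and 3.48% to 4.95% in HFD mice. Cd9 behaved alike at 20 and 34 weeks, with medians of 0.534% and 2.65%, then 0.878% and 2.27%, and groups that did not overlap. The CD medians at 20 weeks without mouse 1 were 0.330% for Trem2, 0.479% for Cd9, 1.22% for Gpnmb, 0.162% for Spp1, 13.4% for Lgals3 and 19.8% for Cd63. Gpnmb had medians of 1.29% in CD and 40.7% in HFD mice at 20 weeks, but its groups overlapped at 34 weeks (17.1% and 24.6%). Spp1 went from 0.195% to 2.19% at 20 weeks and was lower in HFD mice by median at 34 weeks (2.11% in CD and 1.29% in HFD mice). Lgals3 stayed within a narrower band of medians, from 15.8% to 35.0%, and Cd63 had medians from 43.8% in CD mice at 8 weeks to 5.28% in HFD mice at 34 weeks.

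**Figure D3:**
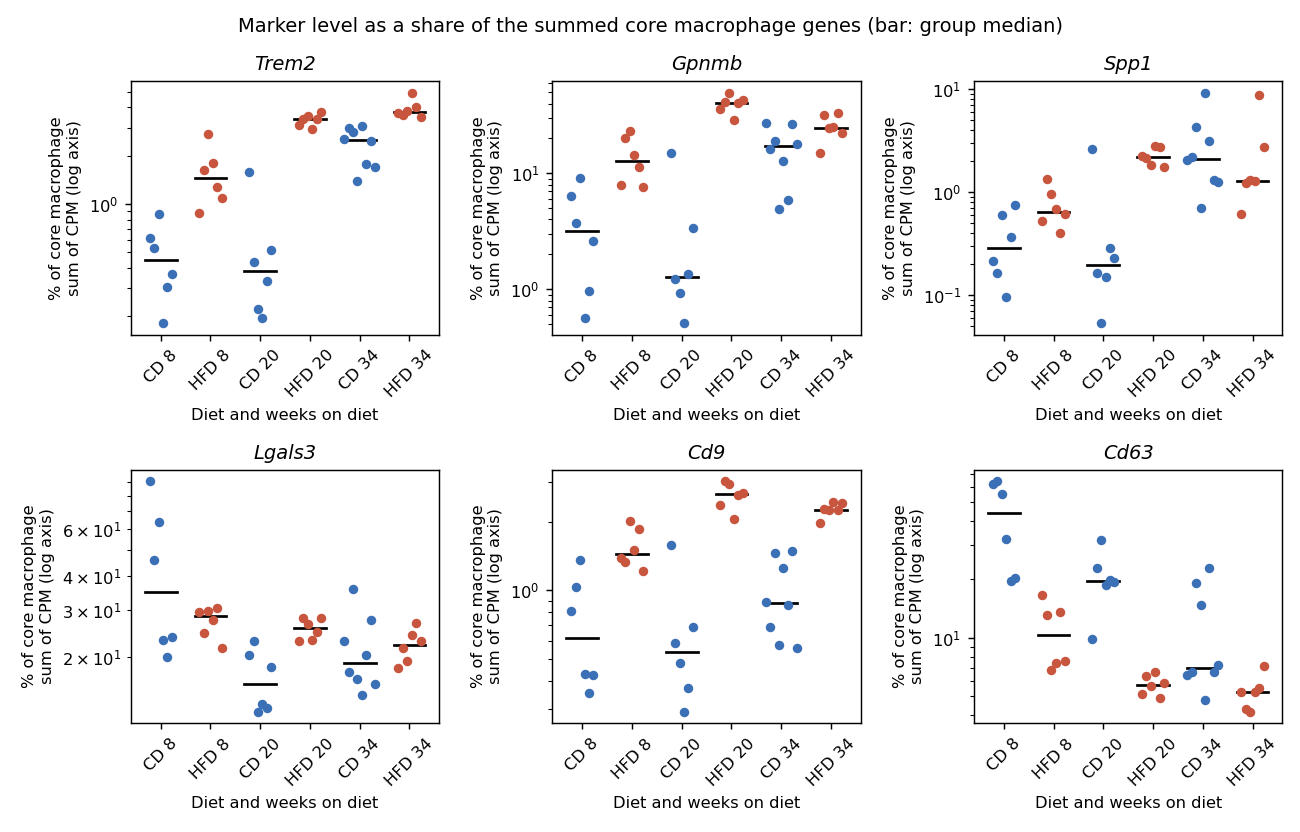
Each marker as a percent (log axis) of the summed CPM of 17 core macrophage genes in the same mouse, by diet (CD blue, HFD red) and weeks on diet, with a bar at the group median. Trem2 lies higher in HFD than in CD mice at all 3 times, Cd9 at 20 and 34 weeks, and Cd63 lies lower by median in HFD mice (5.72% against 19.6% at 20 weeks).

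A further fit took the mean log2(CPM + 1) of the core macrophage genes as a covariate, which takes out what the diet and those genes share. At 8 weeks Gpnmb (1.94, adjusted p = 0.0161), Trem2 (1.25, adjusted p = 0.00327) and Cd9 (1.15, adjusted p = 0.00566) were still higher in HFD mice, and Cd63 was lower (-0.81, adjusted p = 8.44e-05). At 20 weeks Gpnmb (3.63, adjusted p = 0.00103), Trem2 (2.24, adjusted p = 0.000212), Cd9 (2.05, adjusted p = 0.000416) and Lgals3 (1.09, adjusted p = 0.00886) were still called, and Spp1 was not (1.57, adjusted p = 0.0974). At 34 weeks Cd9 alone was (1.20, adjusted p = 0.0208). Without CD mouse 1 at 20 weeks, a fit chosen after seeing the data, the 20 week values were 4.65 for Gpnmb, 2.76 for Trem2, 2.55 for Cd9, 1.25 for Lgals3 and 2.46 for Spp1 (adjusted p = 0.0106), so that Spp1 was called as well. In the covariate fit of all 38 mice Trem2 at 34 weeks had 0.32 (adjusted p = 0.62), although its ratio to the macrophage sum did not overlap between diets. Diet and macrophage genes move together in these mice, so their parts cannot be told apart.

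Mice with more of a marker than the rest of their group had more of the others too. Over the deviations of the 38 mice from their group means, Pearson's r was 0.96 between Trem2 and Cd9, 0.94 between Trem2 and Lgals3, 0.92 between Gpnmb and Trem2, and 0.84 between Trem2 and Spp1 (Spearman's rho 0.95, 0.93, 0.92 and 0.81). The lowest of the 15 pairs was Gpnmb with Cd63 (r = 0.55, rho = 0.58). After leaving out the 2 mice farthest from their group mean for the first gene named, r was 0.94, 0.94, 0.88, 0.73 and 0.53 for these 5 pairs. With the log2 sum of core macrophage genes r ranged from 0.71 for Gpnmb to 0.86 for Trem2. These values describe how the mice line up and share each mouse's library and its makeup of cells. In 5 of the 6 groups a single mouse had the highest value of all 6 markers, and in HFD mice at 34 weeks mouse 4 had the highest of 5.

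**Figure D4:**
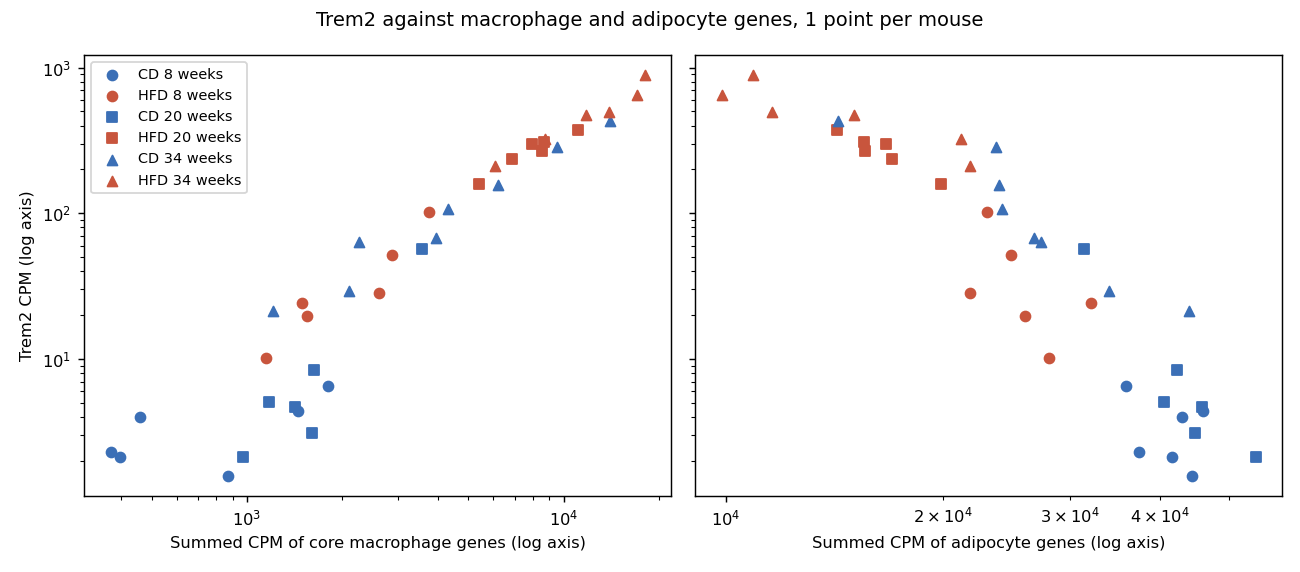
Trem2 CPM against the summed CPM of core macrophage genes (left) and of adipocyte genes (right) in each mouse, on log axes, with CD in blue, HFD in red and the shape giving the weeks on diet. Trem2 is high where macrophage genes are high (up to 18031 CPM) and adipocyte genes low (down to 9883 CPM), and the CD mice at 34 weeks spread from 21.5 to 433 CPM of Trem2.

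For each member, the 3 genes with the most similar log2(CPM + 1) over all 38 mice were listed by Pearson's r, as a description. The other members were left out of this ranking. Gpnmb was most like Atp6v0d2 (r = 0.99), a subunit of the lysosomal proton pump, then the aminopeptidase Anpep (0.99) and coagulation factor F7 (0.98). Trem2 was most like Anpep, the protease Ctss and the oxidase subunit Cyba (all 0.99). Spp1 was most like the lysosomal protease Lgmn, Enpp1 and Ctss (all 0.95). Cd9 was most like the ubiquitin ligase Rnf128, the dipeptidase Dpep2 and cathepsin K, Ctsk (all 0.99), and Lgals3 like Vat1, the adaptor Lat2 and Sh3bgrl3 (0.99, 0.99 and 0.98). Cd63 was most like Dazap2 (0.96), Bin3 (0.94) and Ik (0.92). Within groups the r of the nearest gene was 0.98 for Gpnmb, 0.97 for Trem2, Cd9 and Lgals3, 0.92 for Cd63 and 0.84 for Spp1. At 20 weeks Rnf128 (log2 fold change 5.02, adjusted p = 4.73e-08), Atp6v0d2 (5.37, adjusted p = 1.38e-07) and Ctsk (5.08, adjusted p = 7.94e-08) were higher in HFD mice, whereas Ik had 0.17 (adjusted p = 0.06).

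For the lists that follow, 29.8%, 38.3% and 27.5% of all genes tested were higher in HFD mice at 8, 20 and 34 weeks, and 15.1%, 18.7% and 15.7% were lower. Genes that carry the signal of TREM2 were mostly higher. So were core macrophage genes, with slightly larger medians at each time (given below). Of 9 tested signalling genes 8 were higher in HFD mice at 8 weeks and 9 at 20 and at 34 weeks, with median log2 fold changes of 1.41, 2.51 and 1.60. Tyrobp, the adaptor, went from a median of 20.0 CPM in CD to 340 CPM in HFD mice at 20 weeks (3.77 ± 0.52, adjusted p = 5.47e-07), and Syk, the kinase, from 26.8 to 307 CPM (3.26 ± 0.52, adjusted p = 4.07e-06). Apoe encodes an apolipoprotein that TREM2 binds, and adipocytes also express it. Apoe was lower in HFD mice at 8 weeks (-0.60 ± 0.20, adjusted p = 0.015) and 20 weeks (-0.52 ± 0.20, adjusted p = 0.0271). It was not called at 34 weeks (-0.27, adjusted p = 0.24). Clu, another such ligand, was lower at 20 weeks (-1.30 ± 0.28, adjusted p = 0.000236) and 34 weeks (-1.94 ± 0.27, adjusted p = 5.04e-06). Adam10, a sheddase of TREM2, was higher at all times (1.01 at 20 weeks, adjusted p = 2.18e-05) and Adam17 at 34 weeks (1.15, adjusted p = 0.000164). Of the 4 tested ligands and sheddases 1, 1 and 2 were higher and 1, 2 and 1 lower at 8, 20 and 34 weeks, with medians of -0.26, -0.03 and 0.24. The 5 other Trem genes were below the expression minimum, with Trem1 at 9.15 CPM or less in any mouse.

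Of 10 tested receptors and partners of SPP1, GPNMB and LGALS3, 6, 8 and 7 were higher at 8, 20 and 34 weeks and 1, 0 and 0 lower (medians 0.60, 1.40 and 0.83). Cd44, the osteopontin receptor, went from a median of 54.8 to 513 CPM at 20 weeks (3.15 ± 0.56, adjusted p = 1.6e-05), and Itgb1, the integrin beta chain, from 324 to 646 CPM (1.03 ± 0.13, adjusted p = 1.88e-07). Lgals3bp, the galectin-3 binding protein, was higher at 20 weeks (0.80 ± 0.17, adjusted p = 0.000165) and had -0.12 at 34 weeks (adjusted p = 0.541). Of the other galectins 1 of 5 tested was higher at each time and 2, 2 and 3 were lower (medians -0.16, -0.20 and -0.62). Lgals1, the most abundant of them, was higher at 8 weeks (0.99 ± 0.15, adjusted p = 9.05e-06) and at 20 weeks (0.54 ± 0.15, adjusted p = 0.00304) and had -0.16 at 34 weeks (adjusted p = 0.38), where Lgals8 was the galectin called higher (0.22, adjusted p = 0.0412). Lgals12, the adipocyte galectin, was lower at all times (-1.32 ± 0.20 at 20 weeks, adjusted p = 2.34e-06). Of 18 other tetraspanins 10, 10 and 4 were higher and 0, 2 and 3 lower (medians 0.36, 0.31 and 0.08), at 34 weeks near the shares of all genes, with Cd151 at 0.23 (adjusted p = 0.0922) and Cd81 at 0.22 (adjusted p = 0.15) at 20 weeks. Mitf, a transcription factor of lysosome and Gpnmb genes, had 0.52 at 8 weeks (adjusted p = 0.107) and was higher at 20 weeks (1.54 ± 0.26, adjusted p = 1.01e-05) and 34 weeks (1.40 ± 0.25, adjusted p = 8.13e-05), and Tfe3 was lower at 8 weeks (-0.33 ± 0.12, adjusted p = 0.0253) and higher at 34 weeks (0.55 ± 0.11, adjusted p = 0.000359). Of the 4 factors of that family 0, 3 and 4 were higher and 1, 0 and 0 lower (medians 0.48, 1.53 and 0.92).

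Of 29 further genes of the lipid-associated macrophage programme 22, 24 and 20 were higher and 3, 3 and 1 lower at 8, 20 and 34 weeks (medians 0.91, 1.63 and 0.90). Mmp12, the macrophage elastase, went from a median of 13.7 CPM in CD to 1626 CPM in HFD mice at 20 weeks (5.78 ± 0.71, adjusted p = 1.18e-07), and Itgax, the integrin CD11c, from 4.57 to 360 CPM (5.15 ± 0.66, adjusted p = 1.94e-07). Fabp4 and Lpl, which adipocytes also express, were the most abundant of the list. Fabp4 had 0.01 (adjusted p = 0.971), -0.21 (adjusted p = 0.361) and -0.66 ± 0.18 (adjusted p = 0.00429, lower), and Lpl had 0.18 (adjusted p = 0.372), -0.40 ± 0.16 (adjusted p = 0.0314, lower) and -0.27 (adjusted p = 0.139) at the 3 times. The list shares Apoe, Lgals1, Ctsk, Acp5 and Atp6v0d2 with others named here.

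Markers of several other cell types moved with the members, and their part in the members' values was not tested. Core macrophage genes were higher for 13, 15 and 16 of 16 tested (medians 1.54, 2.66 and 1.74), with Lyz2 at 2.88 ± 0.51 (adjusted p = 1.55e-05) and Mpeg1 at 4.00 ± 0.58 (adjusted p = 9.55e-07) at 20 weeks. Resident macrophage genes were higher for 3, 3 and 4 of 9 and lower for 0, 1 and 0 (medians 1.04, 0.64 and 0.30). At 8 and 20 weeks the share that was higher was near that of all genes. At 20 weeks Mrc1 had 0.99 (adjusted p = 0.0683, and 1.27 with adjusted p = 0.0197 without CD mouse 1) and Stab1 1.79 ± 0.52 (adjusted p = 0.0039). Folr2 (1.705, adjusted p = 0.00389) and Pf4 (1.25, adjusted p = 0.0269) were also higher at 20 weeks, and Clec10a (0.64, adjusted p = 0.206) was not called. Cd163 was lower at 20 weeks (-1.35, adjusted p = 0.0113). Lyve1 (-1.13), F13a1 (-0.60) and Cbr2 (-0.44) were not called. Of 3 tested proliferation genes all were higher at each time (medians 1.89, 2.96 and 2.10), with Mki67 at 3.41 ± 0.60 (adjusted p = 1.49e-05) and Top2a at 2.96 ± 0.49 (adjusted p = 6.52e-06) at 20 weeks. Endothelial genes were higher for 6, 5 and 6 of 6 (medians 1.48, 1.27 and 1.25), with Cdh5 at 1.28 ± 0.43 (adjusted p = 0.0114) and Pecam1 at 1.28 ± 0.38 (adjusted p = 0.00476), and progenitor and fibroblast genes for 3, 6 and 4 of 6 (medians 0.97, 2.49 and 1.28), with Col3a1 at 2.04 ± 0.42 (adjusted p = 0.000116) and Dpt at 2.07 ± 0.26 (adjusted p = 1.17e-07). Of the osteoclast list 2 of 3 tested were higher at each time, Ctsk and Atp6v0d2, while Acp5 was lower at 8 and 20 weeks (-0.62 and -0.46, adjusted p = 0.00269 and 0.0166), and the defining Calcr, Oscar and Ocstamp were below the minimum.

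Monocyte genes were higher for 1, 2 and 0 of 2 tested (medians 0.96, 1.43 and 0.61), with Ccr2 at 1.10 ± 0.46 (adjusted p = 0.0417) and Vcan at 1.77 ± 0.36 (adjusted p = 9.46e-05) at 20 weeks. Mesothelial genes were higher for 2, 0 and 0 of 3 (medians 1.05, 0.34 and -0.51), with Upk3b at 0.34 (adjusted p = 0.518) and Msln at 0.43 (adjusted p = 0.433) at 20 weeks. Zbtb46, the dendritic cell gene tested, was lower at 20 weeks (-0.77 ± 0.12, adjusted p = 2.93e-06). No gene of the T cell, B cell and epididymal lists passed the expression minimum, and Cd4, Trac, Cd79b, Cd79a, Crisp1 and Adam7, the most abundant of them, had at most 4.61 CPM in any mouse. Of 11 adipocyte genes 1, 1 and 0 were higher and 2, 9 and 10 lower (medians -0.31, -0.75 and -0.62), so that most were lower at 20 and 34 weeks and most did not pass at 8 weeks. The gene that was higher was Lep, or leptin (2.18 at 8 weeks and 2.90 at 20 weeks, adjusted p = 0.00118 and 1.78e-05). Cfd, or adipsin, was lower in HFD mice at 20 weeks (-4.03 ± 0.44, adjusted p = 2.26e-08), as was Cidec, a lipid droplet protein (-0.85 ± 0.19, adjusted p = 0.000319). The summed adipocyte genes had medians of 43508 CPM in CD and 16152 CPM in HFD mice at 20 weeks, and 25475 and 13332 CPM at 34 weeks. List counts at 20 weeks without CD mouse 1 were the same in all lists but 2, where Tspan4 (0.46, adjusted p = 0.0246) and Mrc1 were called as well. The medians then were 2.80 for signalling genes, 1.71 for the lipid-associated macrophage programme, 2.95 for core macrophage genes and -0.79 for adipocyte genes, and that of the ligands and sheddases turned from -0.03 to 0.02.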

How the data were processed

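RNA was sequenced from the adipocyte fraction of 38 mice, each as 3 technical replicates (114 samples in the labels) that the authors merged into 1 column per mouse. Per the methods and the submitters' processing notes, the libraries were stranded TruSeq mRNA libraries run on a NextSeq, and the authors aligned reads to mm10 with STAR (2.5, 2.5.2b), counted them over the union of exons of GENCODE vM2 with featureCounts (Subread 1.5.1), scaled them with edgeR and kept genes with an Entrez identifier. The deposited values are CPM. The methods name TMM factors, but each column sums to 1000000, which fits plain CPM over the listed genes and not TMM-scaled values. Of all values, 100% were whole multiples of 1 read within 0.1 reads, and these reads were used for edgeR 4.0.16 and DESeq2 1.42.0, where edgeR called 4521, 6042 and 4478 genes for HFD against CD at 8, 20 and 34 weeks.

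Limma 3.58.1 (R 4.3.3) was run on log2(CPM + 1) of the 10343 genes whose mean on that scale exceeded 2, with 6 group means in 1 fit, the mean-variance trend, 32 residual degrees of freedom, two-sided tests, Benjamini-Hochberg adjustment over all genes tested and a threshold of 0.05. Fold changes are on the log2(CPM + 1) scale, which understates those of low genes, and errors are standard errors. The scripts were tested on simulated data. The members, lists and examples were chosen with earlier results of these data known. All 6 members are named in every group, and the 3 genes most like each by Pearson's r (members and predicted genes passed over). From each list the 2 genes with the highest mean CPM are named, plus Tyrobp, Mmp12, Itgax, Apoe, Lpl, Cd44 and Mitf. Other genes named were chosen after their values were seen. Adgre1, Chil3 and Lgals6 of the lists are not analysed here. Alternatives were pseudocounts of 0.5 and 0.1, no expression minimum or a minimum of 4, TMM and median-of-ratios scaling, edgeR, DESeq2, array weights, a fit of only the groups compared, a macrophage covariate, a replicate block and leaving out each mouse. The covariate without CD mouse 1 at 20 weeks was added after seeing the data. Reads lack molecular identifiers, so depth bounds counting error only. No 2 mice of a group agreed within sampling noise (lowest chi-square 10.6 per degree of freedom over 103 pairs). The stromal vascular libraries are not used here.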

Additional observations from a re-analysis of the deposited data

Results flagged for a closer look

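On the log2(CPM + 1) scale used for the tests, the highest mouse was farther from the next than Dixon's 95% limit allows in 3 of 36 sets of mice (6 markers in 6 groups), and chance gives about 1 in 20 sets. These were Spp1 in CD mouse 1 at 20 weeks (93.3 CPM), Cd9 in the same mouse (56.7 CPM) and Cd63 in HFD mouse 3 at 8 weeks (257 CPM). On CPM itself 11 sets passed that limit. They were 5 markers in CD mouse 1 at 20 weeks (Gpnmb, Trem2, Spp1, Cd9 and Lgals3), Spp1 and Cd9 in CD mouse 5 at 34 weeks, Spp1 in HFD mouse 5 at 34 weeks, HFD mouse 5 at 20 weeks and CD mouse 6 at 8 weeks, and Cd63 in HFD mouse 3 at 8 weeks.

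The difference between diets changed with time by an interaction term for 5 values. From 8 to 20 weeks it moved up for Cd63 (0.96) and Lgals3 (1.97), and from 20 to 34 weeks it shrank for Gpnmb (-4.33), Trem2 (-2.79) and Spp1 (-3.79), all on the log2 scale.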

How the results depend on the processing

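Of the 60 values of single markers, all kept their direction with another pseudocount, expression minimum or scaling. Of the 5 markers called at 8 weeks, 3 were called with no expression minimum and 3 to 5 without single mice. The macrophage covariate left 1 call for HFD against CD at 34 weeks, 3 for CD at 34 against 8 weeks and 1 for HFD at 20 against 8 weeks. For CD at 20 against 8 weeks it gave 1 call in place of 0, Lgals3 as lower (-0.79, adjusted p = 0.0311). With that covariate and without CD mouse 1 at 20 weeks, these counts were 1, 4, 2 and 1. For HFD at 34 against 20 weeks, array weights gave 1 call and single mice left out 0 to 1. The diet difference at 20 against 8 weeks was called for 1 marker with no minimum, 1 with edgeR, 1 with the replicate block, 6 with array weights, 6 with only the groups compared and 0 to 6 without single mice. That at 34 against 20 weeks was called for 0 with edgeR, 5 with array weights, 1 with only the groups compared and 1 to 5 without single mice. The cause was not tested.

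With the macrophage covariate the sign turned for Lgals3 at 8 weeks (-0.10), Cd63 at 20 weeks (-0.14) and Spp1 at 34 weeks (-1.19). It also turned for Gpnmb (-0.49), Trem2 (-0.10), Spp1 (-0.51) and Cd63 (-0.11) in CD at 20 against 8 weeks, Cd63 in CD at 34 against 20 weeks (-0.037), Cd63 (-0.15) and Lgals3 (-0.10) in CD at 34 against 8 weeks, and Spp1 (-0.56), Cd9 (-0.17) and Lgals3 (-0.089) in HFD at 34 against 20 weeks. Without CD mouse 1 at 20 weeks as well, these values were -0.055, -0.243 and -0.885 for HFD against CD, then -0.827, -0.267, -0.808 and -0.08, with Cd9 at -0.163, then -0.113, -0.193 and -0.026, and -0.452, -0.114 and -0.07. Lgals3 in CD at 20 against 8 weeks was 0.061 with edgeR and 0.063 with DESeq2. Leaving out single mice gave, for CD at 20 against 8 weeks, -0.23 to 0.95 for Gpnmb, -0.11 to 1.11 for Spp1 and -0.42 to 0.10 for Lgals3, for HFD at 34 against 20 weeks -0.30 to 0.13 for Gpnmb and -0.21 to 0.64 for Spp1, and for the diet difference at 34 against 20 weeks -0.042 to 0.198 for Cd63. Of 18 pairs of CD and HFD mice with the same number, 8 correlated above 0.1 (range -0.51 to 0.53). Pairs with unlike numbers were not compared, so these values cannot decide whether the numbers pair the mice. The replicate block turned the diet difference of Cd63 at 34 against 20 weeks to -0.056. At 8 weeks the block ended the call of Lgals3 (adjusted p = 0.0683).

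Counts of called genes moved by over 1.5 times in these fits. At 8 weeks 4648 genes became 7032 with array weights, at 20 weeks 5894 became 2106 with the covariate, and at 34 weeks 4468 became 613 with the covariate and 2457 with only the groups compared. CD at 20 against 8 weeks went from 370 to 590 with DESeq2, 1543 with array weights and 848 with the covariate. HFD at 20 against 8 weeks went from 3772 to 6392 with array weights and 434 with the covariate, and HFD at 34 against 20 weeks from 3126 to 5016 with array weights. The diet difference at 20 against 8 weeks went from 464 to 851 with DESeq2, 4263 with array weights, 2698 with only the groups compared and 299 with the covariate, and that at 34 against 20 weeks from 1089 to 3407 with array weights and 723 with only the groups compared. Without single mice the counts ran from 217 to 483 for CD at 20 against 8 weeks, from 195 to 1310 for the diet difference at 20 against 8 weeks and from 710 to 1575 for that at 34 against 20 weeks, the highest of each being without CD mouse 1 at 20 weeks.

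The values rest on 6 to 8 mice per group and, for Trem2 and Spp1 in CD mice at 8 and 20 weeks, on as few as 17 and 7 reads.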
